A study of Mus musculus with 6 samples.

Results

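The 8 genes described here are markers of mast cells and basophils, listed by symbol with earlier results of these data known: Ms4a2, Fcer1a and Fcer1g, which encode the high-affinity IgE receptor, Cpa3, Mcpt8, Prss34 and Cma1, which encode granule proteases, and Hdc, which encodes histidine decarboxylase. All 8 were among the 24411 genes listed for every library, and 7 of them passed the count filter that left 12953 genes for testing. The samples were 3 Brd9 KO libraries (CD45.2(+) Mx1-Cre Brd9fl/fl) and 3 control libraries (CD45.2(+) Brd9fl/fl) of C57BL/6 mouse bone marrow from femora and tibiae, whose poly(A)-selected RNA was sequenced. Brd9 encodes a bromodomain subunit of a BAF chromatin remodeling complex. By the series design, mice of both genotypes received 3 doses of pIpC at 20 mg/kg from 4 weeks after birth, and cells were taken 8 weeks later. The study's text gives an older age at sampling than these times add up to, so the age is uncertain. pIpC is an interferon-inducing RNA that switches on the Mx1 promoter, so Cre recombinase acts in interferon-responsive cells, not in marrow stem cells alone. The control mice carried the floxed allele without Cre, and effects of the recombinase and of Brd9 loss cannot be told apart. The sources differ on the sample: by the labels it was lineage-negative marrow with injections after a transplant, by the series design it came from primary mice, and by the study's methods it was a sort of Lin-c-Kit+ cells. The study describes the replicates as biological, while the labels do not say that they came from separate animals, in which case the p-values would measure only the spread between these libraries.

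Mast cells and basophils are granulated cells that arise from marrow progenitors, and both carry IgE on a receptor made of an alpha chain that binds IgE (Fcer1a), a beta chain that amplifies the signal (Ms4a2) and a gamma chain that passes it on (Fcer1g). Antigen that cross-links the bound IgE makes the cell release preformed granules holding histamine and proteases, and then lipid mediators and cytokines. Mcpt8 and Prss34 are basophil proteases in the mouse, Cma1 is a chymase of mature connective tissue mast cells, and Cpa3 and Hdc are used by both cell types and their progenitors. Fcer1g is less particular, because the gamma chain also pairs with activating receptors on other myeloid cells, natural killer cells and platelets.

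Libraries held between 21151031 and 28500168 counts. Brd9 transcripts measured 15.6, 13.5 and 21.03 CPM (counts scaled to library size, with TMM factors) in Brd9 KO and 45.9, 49.1 and 52.1 CPM in control, and the log2 fold change was -1.56 ± 0.17 (SE), with p adjusted to 0.003447 over all tested genes by edgeR. A gene was called at an adjusted p under 0.1, which called 1190 genes higher and 809 lower. The calls were 59.5% higher genes under TMM, 74.1% when libraries were scaled by their totals and 85.4% in a test on TPM, where the median of all genes moved to 0.10 and 0.19 on the log2 scale, against 0.02 under TMM. Brd9 KO replicate 3 stood apart in late neutrophil genes: S100a9 measured 462, 560 and 3293 CPM in Brd9 KO and 1041, 557 and 678 CPM in control. Values without that library are given for members whose fold change it moved and for lists of related genes whose counts it moved.

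RefSeq sequence (GRCm38.p6) was searched from 250 bases before to 50 after each of the 8 start sites. The factor GATA2, which binds sites with a GATA core, is needed for mast cell and basophil development. Its gene was called higher in Brd9 KO. Gata1, the other GATA factor gene listed and named after its values were seen, was not called (log2 fold change -0.05, adjusted p = 0.8271). A link between these factors and the levels of the members was not tested. The letters GATAA or their complement TTATC were present in 5 of the 8 windows, against 25.4% of 32851 mouse windows of the same length. Ms4a2 held 3 matches, a class (at least 2 matches) with 5.27% of mouse windows, and Fcer1a, Cpa3, Prss34 and Cma1 held 1 each. The 250 bases before the start sites of the called members with a match are shown, with matches in capitals, at chr19:11623720-11623969 (Ms4a2, minus strand), chr1:173227230-173227479 (Fcer1a, minus strand), chr3:20242182-20242431 (Cpa3, minus strand) and chr17:25298144-25298393 (Prss34, plus strand).
Ms4a2: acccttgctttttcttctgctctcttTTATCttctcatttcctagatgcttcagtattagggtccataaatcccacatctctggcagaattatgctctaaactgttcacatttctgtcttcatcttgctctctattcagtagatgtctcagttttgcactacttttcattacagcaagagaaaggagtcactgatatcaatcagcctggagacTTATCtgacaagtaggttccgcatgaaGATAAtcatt
Fcer1a: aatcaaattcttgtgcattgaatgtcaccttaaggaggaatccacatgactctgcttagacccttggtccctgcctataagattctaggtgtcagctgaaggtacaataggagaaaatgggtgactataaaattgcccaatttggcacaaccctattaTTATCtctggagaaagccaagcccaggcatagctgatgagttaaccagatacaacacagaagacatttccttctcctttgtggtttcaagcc
Cpa3: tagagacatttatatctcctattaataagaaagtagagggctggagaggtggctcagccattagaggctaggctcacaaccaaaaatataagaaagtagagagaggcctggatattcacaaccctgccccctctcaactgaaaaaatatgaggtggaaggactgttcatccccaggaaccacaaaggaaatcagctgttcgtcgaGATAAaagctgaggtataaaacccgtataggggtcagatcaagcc
Prss34: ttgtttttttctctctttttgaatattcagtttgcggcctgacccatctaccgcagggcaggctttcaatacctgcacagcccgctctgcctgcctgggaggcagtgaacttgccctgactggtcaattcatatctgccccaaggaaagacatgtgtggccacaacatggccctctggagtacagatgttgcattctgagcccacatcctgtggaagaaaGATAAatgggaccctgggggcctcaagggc
In Ms4a2 the matches began 224, 37 and 10 bases before the start site, and in Fcer1a, Cpa3 and Prss34 they began 92, 45 and 30 bases before it. The windows of Fcer1g, Mcpt8 and Hdc did not hold these letters. The E-box letters CANNTG, the core read by MITF and other helix-loop-helix factors, were in 7 of the 8 windows, all but that of Ms4a2, against 72.3% of mouse windows, and the RUNX core TGTGGT or its complement was in 5 of the 8, against 16.8%. Both strands were searched, the 3 motifs were counted separately, and a match is a description of letters, not evidence that a factor binds.

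Of the 7 members tested, 5 rose in Brd9 KO: Ms4a2, Fcer1a, Cpa3, Mcpt8 and Prss34. Across all tested genes 9.19% were called higher and 6.25% lower. In 6 of the 7 every Brd9 KO library lay above every control library, a pattern that 17.2% of all tested genes had. The members had a median log2 fold change of 0.81, against 0.02 for all genes. Fcer1g and Hdc did not pass the test, and Cma1 was close to absent in both genotypes. The 8 genes together took 0.425%, 0.387% and 0.546% of the counts of the Brd9 KO libraries and 0.257%, 0.213% and 0.281% of those of the control libraries. In bulk RNA a larger number of cells of a type and more RNA per cell cannot be told apart.

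**Figure D1:**
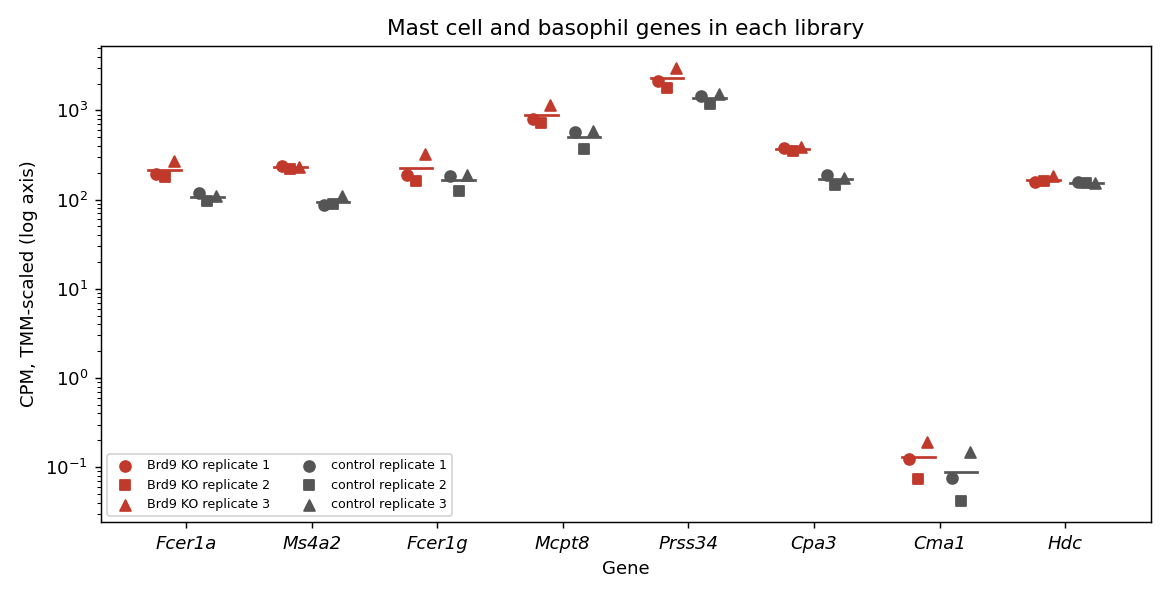
CPM (TMM-scaled, log axis) of the 8 genes in each of the 6 libraries, Brd9 KO in red and control in gray, with a horizontal line at each group's mean. Ms4a2, Fcer1a, Cpa3, Mcpt8, Prss34 and Hdc show no overlap between the groups, Hdc by a narrow margin, and Cma1 lies far below the other genes.

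Among the receptor chains, Ms4a2 (chr19:11615523-11623719, minus strand, mm10), the beta chain, measured 241, 220.1 and 232 CPM in Brd9 KO and 87.2, 88.5 and 109 CPM in control. The Brd9 KO libraries lay close together and far above the control libraries, with means of 231 ± 10.5 CPM in Brd9 KO and 94.8 ± 12.1 CPM in control (SD, n = 3 each). The log2 fold change of 1.28 ± 0.12 (SE), or 2.44-fold, had an adjusted p of 0.002458 and was the largest among the 7 members. It was also the member whose rank by TPM (a length-scaled abundance) differed most, with ranks of 994, 1019 and 1117 in Brd9 KO and 2934, 2895 and 2368 in control. Ms4a2 was the only member quantified over more than 1 transcript in the deposited files, where it has 4, and its abundance-weighted transcript length overlapped between the groups, at 2632, 2662 and 2548 bases in Brd9 KO and 2541, 2646 and 2609 bases in control.

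Fcer1a (chr1:173221284-173227214, minus strand), the IgE-binding alpha chain, measured 196, 181 and 270.4 CPM in Brd9 KO and 118, 95.4 and 110.3 CPM in control. All 3 Brd9 KO libraries were above the highest control library, and replicate 3 was the highest of them. The means were 216 ± 47.9 CPM in Brd9 KO and 108 ± 11.7 CPM in control (SD, n = 3 each), a log2 fold change of 0.998 ± 0.17 with an adjusted p of 0.01505. Without Brd9 KO replicate 3 the log2 fold change was 0.80 with an adjusted p of 0.005591.

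Fcer1g (chr1:171229572-171234365, minus strand), the shared gamma chain, measured 191, 162 and 328 CPM in Brd9 KO and 186, 125 and 189 CPM in control. The groups overlapped, since Brd9 KO replicate 2 was below 2 of the control libraries, and Brd9 KO replicate 3 was far above the other libraries. The log2 fold change of 0.45 ± 0.28 did not pass the test (adjusted p = 0.3267), and it was 0.08 without that library. As TPM the groups did not overlap, at 617, 573 and 857 in Brd9 KO and 432, 367 and 523 in control, on the scale where the median of all genes was itself shifted upward.

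The relation between the chains was therefore examined within each library. On the length-scaled TPM values, Fcer1a stood at 0.568, 0.617 and 0.458 of Fcer1g in Brd9 KO and at 0.354, 0.422 and 0.324 of it in control, with every Brd9 KO ratio above every control ratio. Ms4a2 stood at 0.417, 0.407 and 0.301 of Fcer1a in Brd9 KO and at 0.26, 0.313 and 0.338 of it in control, where the groups overlapped. As log2 ratios of CPM, Fcer1a relative to Fcer1g differed by 0.58 between Brd9 KO and control (exact two-sided permutation p = 0.1) and Ms4a2 relative to Fcer1g by 0.89 (exact permutation p = 0.2). The gap of the other members to Fcer1g was 0.73 for Cpa3, 0.41 for Mcpt8, 0.32 for Prss34 and -0.29 for Hdc. That of Hdc was -0.06 without Brd9 KO replicate 3, -0.10 without control replicate 2 and -0.47 without Brd9 KO replicate 2. With 3 libraries against 3 the smallest exact p is 0.1, so none of the 6 ratios could pass 0.05, and the adjusted values over the 6 were 0.24 for all but Hdc, which had 0.5.

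**Figure D2:**
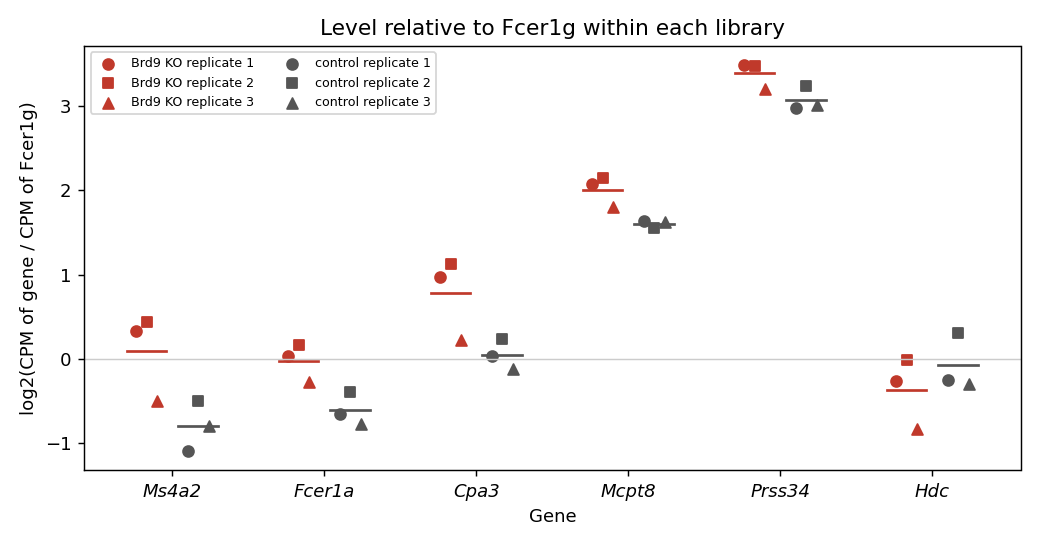
Log2 ratio of each gene's CPM to that of Fcer1g within the same library, for 6 genes, Brd9 KO in red and control in gray, with lines at the group means. The ratio of Fcer1a and that of Mcpt8 do not overlap between the groups, and Brd9 KO replicate 3 has the lowest ratio of the 3 Brd9 KO libraries in every gene.

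The granule proteases included the most abundant members. Cpa3 (chr3:20215620-20242181, minus strand), mast cell carboxypeptidase A, measured 375, 353 and 384 CPM in Brd9 KO and 191, 147 and 174 CPM in control. The 3 Brd9 KO libraries were within a narrow range and each exceeded the highest control library by a wide margin. The means were 371 ± 16.0 CPM in Brd9 KO and 170.5 ± 22.2 CPM in control (SD, n = 3 each), with a log2 fold change of 1.12 ± 0.12, or 2.18-fold, and an adjusted p of 0.003447. Brd9 KO replicate 3, which was well above the other Brd9 KO libraries in Fcer1a, Fcer1g, Mcpt8 and Prss34, was level with them in Cpa3 and Ms4a2.

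Prss34 (chr17:25298394-25300165, plus strand), a basophil protease also called mMCP-11, measured 2138, 1799 and 3024 CPM in Brd9 KO and 1460, 1175 and 1516 CPM in control. It was the most abundant member in every library and ranked 59, 67 and 56 among all genes by TPM in Brd9 KO and 110, 108 and 96 in control. The groups did not overlap, although Brd9 KO replicate 2 was nearer to the highest control library than to Brd9 KO replicate 3. The log2 fold change was 0.75 ± 0.21, or 1.68-fold, with an adjusted p of 0.06721. Prss34 alone took 0.221%, 0.194% and 0.296% of the counts in Brd9 KO and 0.135%, 0.117% and 0.15% in control.

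Mcpt8 (chr14:56082166-56085273, minus strand), a granule serine protease that marks mouse basophils, measured 804, 715 and 1146 CPM in Brd9 KO and 576, 366 and 581 CPM in control. Its libraries were ordered much as those of Prss34, with Brd9 KO replicate 3 highest and control replicate 2 lowest. The log2 fold change was 0.81 ± 0.23, or 1.75-fold, with an adjusted p of 0.07605. The ratio of Mcpt8 to Prss34 in TPM was 0.6, 0.635 and 0.604 in Brd9 KO and 0.628, 0.496 and 0.611 in control, so these basophil proteases kept a similar proportion apart from control replicate 2. Without Brd9 KO replicate 3 the log2 fold changes were 0.58 for Mcpt8 (adjusted p = 0.07371) and 0.51 for Prss34 (adjusted p = 0.0556). Both calls were lost, leaving 3 of the 7 members called, without Brd9 KO replicate 1 or without any 1 of control replicates 1, 2 and 3, and also at an adjusted p under 0.05.

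Cma1 (chr14:55941451-55944675, minus strand), the mast cell chymase, had 3, 2 and 4 counts in Brd9 KO and 2, 1 and 4 counts in control. The sums were 9 in Brd9 KO (95% exact Poisson interval 4.12 to 17.1, counting error only) and 7 in control (2.81 to 14.4), so no difference was detectable at this depth. Other genes of mature mast cells were equally scarce. Among 10 of them, which included the chymase genes Mcpt1, Mcpt2 and Mcpt4 and the tryptase genes Tpsab1 and Tpsb2, 5 had no count in any library and the highest count of any in 1 library was 3. Defining markers of mature mast cells were thus at or near 0 in all 6 libraries, and the members detected well are ones that basophils or progenitors also use.

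Hdc (chr2:126593667-126619299, minus strand), which makes histamine from histidine, measured 159, 161 and 184 CPM in Brd9 KO and 157, 155 and 154 CPM in control. Each Brd9 KO library was above each control library, but replicates 1 and 2 only narrowly. The log2 fold change of 0.11 ± 0.10 did not pass the test (adjusted p = 0.4841). It was 0.04 without Brd9 KO replicate 3.

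Genes that act beside the members were then described, from lists of related genes. Of 18 genes of IgE receptor signaling, 8 rose and 10 did not pass the test, with a list median of 0.53. Syk, the kinase that binds the phosphorylated gamma chain, measured 306, 298 and 259 CPM in Brd9 KO and 162, 178 and 171 CPM in control, with a log2 fold change of 0.75 ± 0.11 and an adjusted p of 0.007907. The kinase gene Fyn rose by 0.75 ± 0.11 (adjusted p = 0.009558), the adaptor gene Lcp2 (SLP-76) by 0.55 (adjusted p = 0.01458) and the adaptor gene Gab2 by 0.61 (adjusted p = 0.02251). In these 4 genes the groups did not overlap. The count of 8 was 4 without Brd9 KO replicate 1 or control replicate 3 and 5 without Brd9 KO replicate 2 or control replicate 2. It was 10 without Brd9 KO replicate 3. Many of these signaling genes also serve other blood cells.

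The list of receptors that pair with the gamma chain, in which Pilrb1 is an uncertain entry, had a median of 0.39. Of its 7 tested genes, 3 rose. They were Gp6, the collagen receptor of platelets and megakaryocytes (log2 fold change 1.49, adjusted p = 0.0319), Ncr1, a natural killer cell receptor (1.26, adjusted p = 0.04057), and Fcgr3, a receptor for IgG (0.37, adjusted p = 0.07263). The count was 1 without Brd9 KO replicate 2, control replicate 1 or control replicate 3, and it was 0 without control replicate 2.

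Among 13 tested basophil markers outside the 8 members, 5 rose and 2 fell, and the list median was 0.45. Cd200r3, an activating receptor of mouse mast cells and basophils, measured 61.7, 61.7 and 76.0 CPM in Brd9 KO and 20.3, 21.5 and 23.3 CPM in control, a log2 fold change of 1.62 ± 0.12 with an adjusted p of 0.001225. Cyp11a1, the enzyme that starts steroid synthesis, measured 74.3, 71.3 and 102 CPM in Brd9 KO and 27.7, 20.03 and 26.3 CPM in control (1.74 ± 0.18, adjusted p = 0.003234). Both rose by more than any of the 8 members. The chemokine gene Ccl9 fell by 1.70 on the log2 scale (adjusted p = 0.01428) and the early activation gene Cd69 fell by 0.80 (adjusted p = 0.03128). The other higher genes, named after their values were seen, were the cytokine genes Il6 (1.44) and Il4 (1.31) and the transcription cofactor gene Lmo4 (0.45). The count of higher genes was 2 without Brd9 KO replicate 1 or control replicate 2, 3 without control replicate 1 or 3, and 6 without Brd9 KO replicate 3. For lower genes it was 1 when Brd9 KO replicate 1 and 4 when Brd9 KO replicate 3 was left out.

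**Figure D3:**
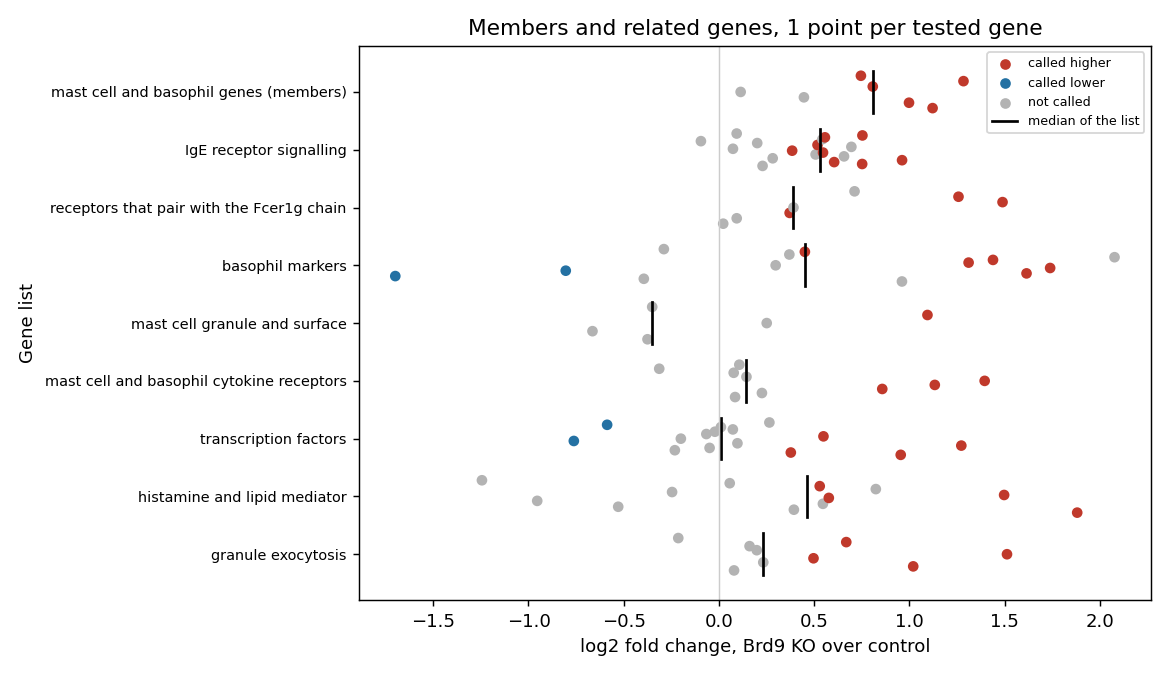
Log2 fold change (Brd9 KO over control) of each tested gene in the list of the 8 genes and in 8 lists of related genes, with a black line at each list's median, red for genes called higher, blue for genes called lower and gray for genes not called. The members have the highest median of these lists, 0.81. The list of mast cell granule and surface genes, with 5 genes tested, has the lowest, -0.35.

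Of the other granule and surface genes of mast cells, 5 of 15 passed the count filter, and 1 of these rose. It was Slc18a2, the vesicular transporter that loads histamine into granules, which measured 103, 91.5 and 105 CPM in Brd9 KO and 46.4, 43.9 and 49.6 CPM in control (1.10 ± 0.10, adjusted p = 0.002543). The list median was -0.35. The tested genes below 0 were Srgn (-0.35), Ctsg (-0.38) and Gzmb (-0.66), none of them called, and Ndst2 (0.25) was not called either. These genes were named after their values were seen, and Ctsg and Gzmb are counted again in the chymase and granzyme cluster below. The 10 genes that did not pass the filter had at most 3 counts in 1 library, so the median does not describe them. Without Brd9 KO replicate 3, 2 of the 5 rose and 3 fell.

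Of 12 tested genes for enzymes of histamine and lipid mediators and their receptors, 4 rose, and the list median was 0.46. Alox5, the lipoxygenase that starts leukotriene synthesis, measured 168, 172 and 188 CPM in Brd9 KO and 47.0, 46.1 and 50.2 CPM in control. Its log2 fold change of 1.88 ± 0.10 (3.69-fold, adjusted p = 0.0005746) was above that of every member. The histamine receptor genes Hrh4 (1.498, adjusted p = 0.01863) and Hrh2 (0.58, adjusted p = 0.09707) and the phospholipase gene Pla2g4a (0.53, adjusted p = 0.09872) also rose, Pla2g4a with overlapping groups. The count was 2 without any 1 of Brd9 KO replicates 1 and 2 and the 3 control libraries, and without Brd9 KO replicate 3 it was 4 with 3 genes lower.

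In the machinery of granule release 4 of 9 genes rose, with a list median of 0.23. They were the membrane fusion genes Stx3 (1.51, adjusted p = 0.00328) and Stx11 (0.50, adjusted p = 0.07282), the vesicle priming gene Unc13d (0.67, adjusted p = 0.00792) and the small GTPase gene Rab27b (1.02, adjusted p = 0.04478). The count was 2 without Brd9 KO replicate 1, Brd9 KO replicate 2, control replicate 2 or control replicate 3. Without Brd9 KO replicate 3 it was 5, with 1 gene lower.

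Of 9 tested cytokine receptor genes of these cells 3 rose, with a list median of 0.14: the beta chains of the IL-3 receptor family Csf2rb2 (1.13, adjusted p = 0.004349) and Csf2rb (0.86, adjusted p = 0.02405), and the IL-18 receptor gene Il18r1 (1.40, adjusted p = 0.01185). Csf2rb and Csf2rb2 are close paralogs, so reads may be split between them. Without Brd9 KO replicate 3, 4 of the receptor genes rose. Of the 15 transcription factor genes 4 rose and 2 fell, with a list median of 0.01. Gata2, a zinc finger factor needed for both cell types, measured 494, 443 and 570.1 CPM in Brd9 KO and 226, 176 and 221 CPM in control, a log2 fold change of 1.27 ± 0.14 with an adjusted p of 0.003692. Runx1, a regulator of marrow stem cells, rose by 0.55 (adjusted p = 0.0404). Irf8, a monocyte and dendritic cell factor also used by basophil progenitors, fell by 0.76 (adjusted p = 0.01532), and Tfec, a relative of Mitf, fell by 0.59 (adjusted p = 0.03026). The other higher genes were Cebpa (0.38) and Bhlhe40 (0.95), which were picked for mention with their values in view. The count of higher factors was 2 without Brd9 KO replicate 1, Brd9 KO replicate 2 or control replicate 3 and 1 without control replicate 1 or 2, and that of lower factors was 1 without Brd9 KO replicate 1 or control replicate 2. Without Brd9 KO replicate 3, 5 factors rose and 3 fell.

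Genes listed with the genomic clusters that hold members were followed as well, some of them at a distance from the member. Ms4a2 belongs to the Ms4a cluster of chromosome 19, where it lies between Ms4a6d and Ms4a3. Of 8 tested neighbors in that cluster, 0 were called by edgeR, 0 had an unadjusted p under 0.05, and DESeq2 and limma-voom also called 0. The list median was -0.18. Ms4a3, a granulocyte and monocyte progenitor gene, measured 453, 447 and 584 CPM in Brd9 KO and 608, 678 and 489 CPM in control, with overlap. Ms4a6c measured 143, 146 and 183 CPM in Brd9 KO and 172, 168 and 213 CPM in control, also with overlap. Without Brd9 KO replicate 3, 2 of the cluster's genes were called lower. Ms4a4d and Ms4a7 did not pass the filter and were named after their values were seen. Ms4a4d had 10, 8 and 8 counts in Brd9 KO and 2, 0 and 1 in control. Ms4a7 had 10, 9 and 19 counts in Brd9 KO and 2, 5 and 8 in control. The remaining untested genes, Ms4a10 and Ms4a15, had no counts.

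Mcpt8 and Cma1 belong to the chymase and granzyme cluster of chromosome 14, in which 2 of 13 other genes passed the count filter. Ctsg, the neutrophil protease cathepsin G beside Mcpt8, measured 1143, 1119 and 1199 CPM in Brd9 KO and 1722, 1484 and 1281 CPM in control, with every Brd9 KO library below every control library. Its log2 fold change of -0.38 had an adjusted p of 0.1231, and that of Gzmb, granzyme B, was -0.66 with an adjusted p of 0.1201. The 2 genes thus had 0 calls in edgeR and in limma-voom, while both had an unadjusted p under 0.05, both were called lower by DESeq2, and both were called lower without Brd9 KO replicate 3. Mcpt8 and its neighbor Ctsg had fold changes of opposite sign, and the difference between them was not tested.

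Of 9 other genes listed with the tryptase cluster of chromosome 17, where Prss34 lies, 2 passed the filter. Prss30, Prss32, Prss33 and Prss41 are not next to Prss34. They start between positions 23833347 and 23972126, and Prss34 starts at 25298394. Prss28, the nearest of the 9 on one side, measured 5.56, 4.26 and 9.07 CPM in Brd9 KO and 1.89, 1.56 and 2.10 CPM in control (log2 fold change 1.76 ± 0.32, adjusted p = 0.01835). The other tested gene, Prss30, named after its values were seen, was not called and its groups overlapped (log2 fold change -0.09, adjusted p = 0.8925). Prss29, which did not pass the filter and was named after its values were seen, had 8, 5 and 7 counts in Brd9 KO and 0 in each control library.

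Markers of other cell types moved in the same comparison, and their part in the results above was not tested. Eosinophil markers, of which 9 of 10 rose and 1 fell, summed to 4472, 4413 and 8606 CPM in Brd9 KO and 2538, 1947 and 2221 CPM in control, highest in Brd9 KO replicate 3 as the members were. The 1 that fell was Epx, by 1.54 on the log2 scale (adjusted p = 0.003447). Most of the sum was Prg2, with 3453, 3355 and 6729 CPM in Brd9 KO and 1931, 1375 and 1599 CPM in control. The 8 members summed to 4104, 3591 and 5569 CPM in Brd9 KO and 2775, 2150 and 2833 CPM in control. Megakaryocyte markers, with 6 of 9 higher, summed to between 3734 and 5141 CPM in Brd9 KO and between 1738 and 2868 CPM in control. When each library was left out, the count of higher markers ranged from 4 to 8 for megakaryocytes and from 7 to 9 for eosinophils. Neutrophil markers, with 3 of 10 lower, summed to 9950, 10270 and 18320 CPM in Brd9 KO and 21540, 18880 and 17390 CPM in control, and 8 of the 10 were lower when Brd9 KO replicate 3 was left out. Leaving out any 1 of the other 5 libraries left 1 neutrophil marker lower. Stromal markers, with 7 of 9 higher, stayed low, between 110.9 and 177 CPM in Brd9 KO and between 36.5 and 55.6 CPM in control. Of the 7, Pdgfra was under the level of the count filter in every control library and was tested only through its Brd9 KO counts. It had 17, 28 and 14 counts in Brd9 KO and 1, 1 and 7 in control. The count of higher stromal markers ranged from 6 to 8 when each library was left out. Of the natural killer and T cell markers, 4 of 9 rose and 1 fell, with a median of 0.69. Their sum was lower, between 147 and 204 CPM in Brd9 KO and between 250.3 and 319 CPM in control, because the abundant Nkg7 was the 1 that fell, by 0.97 on the log2 scale. The count of higher ones was 1 without Brd9 KO replicate 2 or control replicate 2 and 2 without control replicate 1, and that of lower ones was 2 without Brd9 KO replicate 3. Of the macrophage markers, 4 of 7 rose and 2 fell, with a median of 1.03. Their sum was between 58.7 and 95.2 CPM in Brd9 KO and between 72.7 and 106 CPM in control, and its most abundant gene, Vcam1, fell by 1.40 on the log2 scale. The count of higher ones was 2 without control replicate 2, and that of lower ones was 1 without Brd9 KO replicate 1, control replicate 1 or control replicate 3.

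Markers of the sort were read as well. Of 5 tested genes of the lineage cocktail 1 rose, Itgam (CD11b of myeloid cells), which measured 90.8, 124 and 150.3 CPM in Brd9 KO and 40.9, 60.3 and 58.9 CPM in control (log2 fold change 1.19 ± 0.22, adjusted p = 0.01914). Without Brd9 KO replicate 3, 2 of the 5 fell. Of 6 genes listed as stem and progenitor markers 5 were not called and 1 rose. The gene that rose was Ptprc (CD45), which most blood cells carry, with a log2 fold change of 0.47 (adjusted p = 0.05268). The count of higher genes was 0 without Brd9 KO replicate 1, Brd9 KO replicate 2, control replicate 1 or control replicate 2. It was 2 when Brd9 KO replicate 3 was left out. The part of these genes in the results on the members was not tested. Kit, the stem cell factor receptor of progenitors and mast cells and a marker of the sort, measured 269, 266 and 178 CPM in Brd9 KO and 205, 228 and 229 CPM in control, with a log2 fold change of 0.11 that did not pass the test (adjusted p = 0.7007).

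**Figure D4:**
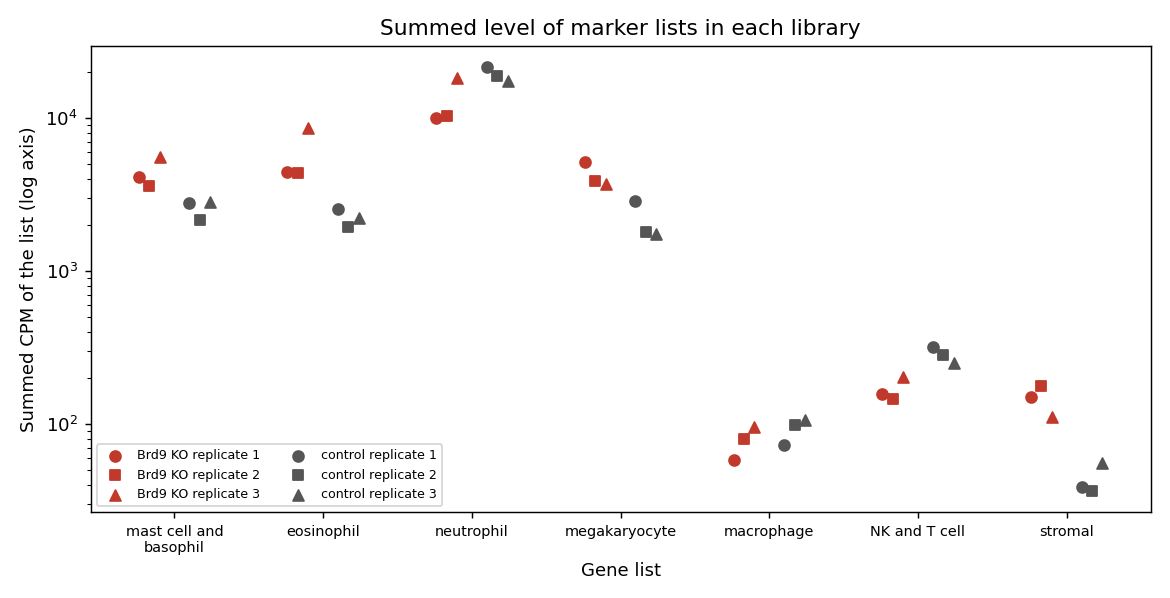
Summed CPM (log axis) of the 8 mast cell and basophil genes and of 6 marker lists in each library, Brd9 KO in red and control in gray. The sums of the members and of the eosinophil list are highest in Brd9 KO replicate 3, and the neutrophil sum of that library lies among the control libraries.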

How the data were processed

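The RNA-seq libraries, 3 of Brd9 KO and 3 of control, were grouped by their titles. The study's methods state alignment to mm10 by STAR and quantification by RSEM within an nf-core pipeline. The deposited files hold RSEM's expected count per gene, an estimated count that need not be whole, and the TPM, transcript length and effective length that the authors' run computed. Strandedness is uncertain (unstranded by the labels, a stranded kit by the methods). No annotated antisense gene overlapped a member, and 0 members had a fractional count in any library, so none was shown to share reads.

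Expected counts were rounded and fitted with edgeR 4.0.16 in R 4.3.3 (filterByExpr, TMM, quasi-likelihood test without covariates), with Benjamini-Hochberg adjustment over the 12953 genes tested. The SE was taken as |log2 fold change|/√F. CPM are TMM-scaled. Ratios between members were compared by exact permutation for members with at least 10 counts in every library. Alternatives used other scaling, filters and thresholds, DESeq2 1.42.0, limma 3.58.1 (voom, and log2 TPM with a pseudocount of 1 or 0.1), a replicate block, and each library left out. The scripts were tested on simulated data.

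The members and lists were chosen with earlier results of these data known. Text names all members, Brd9, of each list of related genes up to 4 called genes with the smallest p (or the 2 with the highest mean CPM where none was called), and the 5 genes most like the members; exceptions are stated. Lists of other cell types are given by counts or sums, and single genes in them were named after their values were seen. Gene positions are from GENCODE M21 (mm10). No sample column was left out. Depth limits counts near 0 by counting error only.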

Additional observations from a re-analysis of the deposited data

How the results depend on the processing

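Ms4a2, Fcer1a and Cpa3 were called, and Fcer1g and Hdc not called, under all 17 alternatives, and no member changed sign. The log2 fold changes ranged over 1.23 to 1.496 for Ms4a2, 0.80 to 1.20 for Fcer1a, 1.02 to 1.35 for Cpa3, 0.58 to 1.03 for Mcpt8, 0.51 to 0.94 for Prss34, 0.08 to 0.64 for Fcer1g and 0.04 to 0.33 for Hdc. The number of members called was 5 in 12 of the 17 alternatives, was 3 at an adjusted p under 0.05, and ranged from 3 to 5 when each library was left out. The adjusted p of Mcpt8 ranged from 0.00998 to 0.1715 and that of Prss34 from 0.00695 to 0.1793. Over all genes 1999 were called, against 2728 by DESeq2, 1079 and 1059 on log2 TPM with pseudocounts of 1 and 0.1, 1015 at an adjusted p under 0.05, 1225 with a 1.5-fold change as well, and, with 1 library omitted, 641 (Brd9 KO 1), 801 (Brd9 KO 2), 4150 (Brd9 KO 3), 1010 (control 1), 729 (control 2) or 917 (control 3). The cause was not tested. Same-numbered libraries had correlated deviations of -0.09, 0.47 and 0.02, and 2 of 6 libraries correlated best with their own number, so the numbers were not taken to pair animals. With the replicate block 5 members and 2077 genes were called. The counts of list genes without each library were added after seeing the data. Groups of 3 libraries limit all comparisons, and Cma1 cannot be compared at this depth.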

Other observations

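The genes whose levels followed the members most closely over the 6 libraries, measured by Pearson's r between log2 CPM and the members' mean z-score, were Wbp2 (r = 0.998), Ppp1r18 (0.998), Neurl3 (0.998), Clec12a (0.997) and S1pr4 (0.996). This is a description without a p, since the libraries fall into 2 genotypes that the members already separate. The members' mean z-score was 0.50, 0.25 and 1.45 in Brd9 KO and -0.52, -1.15 and -0.53 in control. Clec12a, an inhibitory lectin receptor of myeloid cells, was the most abundant of the 5, with 669, 634 and 928 CPM in Brd9 KO and 462, 384 and 453 CPM in control, a log2 fold change of 0.78 with an adjusted p of 0.03275. Neurl3, a ubiquitin ligase gene, rose by 1.03 (adjusted p = 0.03158). Wbp2, Ppp1r18 and S1pr4 rose by 0.42, 0.55 and 0.40. In all 5 genes every Brd9 KO library lay above every control library, with Brd9 KO replicate 3 highest. The members' mean z-score has the same pattern, so it comes with the choice of these genes and is not a separate result.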
